A study of Mus musculus with 8 samples.

Results

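The mitochondrial ribosomal proteins are the nuclear-encoded proteins of the ribosome inside mitochondria. Here they were taken as every protein-coding gene of the deposited table whose symbol starts with Mrpl or Mrps followed by a digit, which gave 77 of the 27110 genes listed. Of these, 48 carry a large subunit name (Mrpl) and 29 a small subunit name (Mrps). All 77 passed the filter on low counts and were among the 16420 genes tested. The fewest reads of any member in any library were 562 for the large subunit and 250 for the small subunit.

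RNA was sequenced from 8 mouse livers at week 7 to compare liver-restricted deletion of Pkd1l1, a candidate gene for the bile duct disease biliary atresia, with its floxed control. The 4 LKO libraries (replicates 3, 4, 12 and 13) were all labelled female, and of the 4 Fl/Fl libraries replicates 5, 7 and 9 were labelled female and replicate 10 male. Both genotypes carry the treatment label NT and no other agent. The recombinase, the promoter that drives it and the mouse strain are not given in the sources used here. Labels name hepatocytes and cholangiocytes as the cell type beside the source tissue, and do not say whether the animals were littermates.

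Mitochondria keep their own small genome, and the mitochondrial ribosome reads it to make membrane-embedded subunits of the respiratory chain and of ATP synthase. Its 2 rRNAs are transcribed inside the organelle, while its proteins are encoded in the nucleus, made in the cytosol and imported. The large subunit joins amino acids and passes the chain towards the inner membrane, and the small subunit reads the mRNA. Some proteins descend from those of the bacterial ribosome and others are found only in mitochondria. Hepatocytes are rich in mitochondria.

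The 4 members shown first are those that passed the test between genotypes, and 250 bases upstream of their starts are shown so that the sequence before each start can be compared. The sequences are those of RefSeq on GRCm38.p6, 5′ to 3′, and capitals mark letters matching GCGC, any base and TGCGC in a row (a form of the site of NRF1, an activator of respiratory genes), or CCGGAAG, a form of the ETS site bound by GABP, on either strand. The windows are chr11:120484387-120484636 for Mrpl12, chr17:45686099-45686348 for Mrpl14, chr4:155802628-155802877 for Mrpl20 and chr2:130563507-130563756 for Mrps26, all on the plus strand.
Mrpl12: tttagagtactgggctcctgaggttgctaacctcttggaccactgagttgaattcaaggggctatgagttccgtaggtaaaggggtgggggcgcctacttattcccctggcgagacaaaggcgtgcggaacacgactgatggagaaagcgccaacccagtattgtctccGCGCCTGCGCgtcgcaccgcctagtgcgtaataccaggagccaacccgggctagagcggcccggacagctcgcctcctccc
Mrpl14: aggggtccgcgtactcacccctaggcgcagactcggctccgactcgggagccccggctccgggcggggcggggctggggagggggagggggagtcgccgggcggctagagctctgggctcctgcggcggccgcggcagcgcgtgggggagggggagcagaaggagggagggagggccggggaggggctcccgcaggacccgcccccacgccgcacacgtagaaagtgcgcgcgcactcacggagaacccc
Mrpl20: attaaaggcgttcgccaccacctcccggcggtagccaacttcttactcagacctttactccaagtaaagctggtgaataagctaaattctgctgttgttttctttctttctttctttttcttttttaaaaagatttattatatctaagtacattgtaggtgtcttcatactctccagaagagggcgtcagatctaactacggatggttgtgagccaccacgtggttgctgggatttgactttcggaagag
Mrps26: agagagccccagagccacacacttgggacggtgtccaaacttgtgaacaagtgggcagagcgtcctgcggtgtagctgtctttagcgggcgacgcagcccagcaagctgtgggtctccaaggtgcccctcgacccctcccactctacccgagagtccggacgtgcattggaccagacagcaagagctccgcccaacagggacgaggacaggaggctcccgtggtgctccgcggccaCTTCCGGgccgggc
The window of Mrpl12 holds the first motif on the plus strand 81 bases before the start, and that of Mrps26 holds CCGGAAG on the minus strand 14 bases before it. The windows of Mrpl14 and Mrpl20 hold neither motif. The RefSeq starts of Mrpl12, Mrpl14 and Mrps26 lie just inside the gene bounds of the deposited table, so the last bases of those windows lie within the gene as the table places it.

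RefSeq windows were found for 68 of the 77 members, in 74 entries. The NRF1 form with an open base stood in 10 entries (13.5%), against 7.1% of the 14706 entries of tested genes, and its subset with A at the open base in 3 (4.05%) against 1.46%. CCGGAAG stood in 17 entries (23.0%) against 12.1%, and AAGATGGCG, a form of the YY1 site, in 2 (2.7%) against 1.06%. The E-box CACGTG (9.46% against 7.84%), CCAAT (36.5% against 34.8%) and TATAAA (6.76% against 7.21%) were at shares close to those of the tested genes. Over all 32851 windows, the open NRF1 form stood in 3.74% and CCGGAAG in 6.91%. The median GC content of the windows was 58.4% for members and 58.8% for tested genes. These are matches of letters on both strands and do not show binding.

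The libraries held 71491723 to 76622375 reads on genes, and 3 reads were worth 0.0385 to 0.0428 CPM (read counts scaled to TMM-adjusted library sizes). Reads on Pkd1l1 were 0, 1, 1 and 0 in Fl/Fl 5, 7, 9 and 10 and 0, 0, 0 and 2 in LKO 3, 4, 12 and 13, too few to check the labels. Of the marker lists of 8 liver cell types, 0 genes passed in edgeR in any list. DESeq2 called 2 hepatocyte and 1 macrophage markers, all higher in LKO, and an unadjusted p under 0.05 was found for 2 higher and 1 lower hepatocyte, 1 higher macrophage, 1 lower cholangiocyte and 1 lower B cell markers. For comparison, DESeq2 called 6.24% of all genes it tested. At an unadjusted p under 0.05 in edgeR, 9.22% of all genes were higher and 6.86% lower. The 8 hepatocyte markers summed to 122298 to 136841 CPM in LKO, 127469 to 135978 in female Fl/Fl, and the male Fl/Fl library had 85060. The 7 cholangiocyte markers used summed to 53.8 to 64.9 CPM in LKO and 64.6 to 78.2 in female Fl/Fl. Immediate early genes, which cells switch on soon after a stimulus, differed between the libraries. The 10 of them summed to 3476, 2674 and 1617 CPM in Fl/Fl 5, 7 and 9, to 461 in Fl/Fl 10 and to 554 to 1104 in LKO, and in edgeR 2 of the 10, Junb (adjusted p = 0.00127) and Jun (adjusted p = 0.0369), fell. DESeq2 called 6 of the 10 lower and limma voom 5. What part the early response state of Fl/Fl 5 and 7 has in the results below was not tested. Leaving both out keeps Fl/Fl 9 as the only female control, and it is itself above every LKO library in this sum. Counts without either library, and median fold changes without both, are given below. In bulk liver, fewer cells of a type and less RNA per cell cannot be told apart, and the p-values reflect only how these libraries vary, which may be technical.

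LKO livers held more Mrpl12, Mrpl14, Mrpl20 and Mrps26 RNA than female Fl/Fl livers, by 1.42-fold to 1.65-fold, and no member fell. In edgeR's quasi-likelihood test with a sex term and Benjamini-Hochberg adjustment over all 16420 genes, 4 of 77 members rose, 0 fell and 73 did not pass. Over all genes tested, 1.41% passed at this threshold of 0.05, 1.02% higher and 0.396% lower. The large subunit gave 3 of 48 and the small subunit 1 of 29. At an unadjusted p under 0.05, 26 members had positive values and 0 negative ones, where 9.22% of all genes were higher and 6.86% lower. This split depended on the fit: it was 23 higher and 11 lower without Fl/Fl 9, and 0 and 0 without a sex term. The shares of all genes at that unadjusted p were not read in those fits. Whether the shift is particular to the members was therefore not tested. DESeq2 with the same terms called 13 members, all higher, at a background of 6.24%, and limma voom called 4 with none lower, at a background of 1.19%. The count of 4 depended on single libraries, as did the share of all genes that passed. It was 0 without Fl/Fl 5, where 0.0238% of all genes passed, 0 without Fl/Fl 7 (0.22%) and 0 without LKO 4 (0.279%). It was 2 without LKO 12 (0.841%), 2 without LKO 13 (0.345%) and 10 without Fl/Fl 9 (4.34%), of which 1 was lower, Mrpl1. Without both Fl/Fl 5 and 7, Fl/Fl 9 is the only female control, and the median log2 fold change over the members was 0.15. The count was also 0 in the fit without a sex term (0.00609%), which sets the male library among the controls.

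Mrpl12 forms the flexible stalk of the large subunit that recruits translation factors (chr11:120484613-120489065, plus strand). Its level was 18.8, 19.0 and 22.3 CPM in female Fl/Fl 5, 7 and 9 and 30.4, 30.9, 31.9 and 28.9 CPM in LKO 3, 4, 12 and 13. Every LKO library was above every female Fl/Fl library, and the male Fl/Fl library, at 34.2 CPM, was above all of them. The means were 30.5 ± 1.27 CPM (SD, n = 4) in LKO and 20.02 ± 1.94 CPM (n = 3) in female Fl/Fl, and the log2 fold change was 0.61 ± 0.093 (SE; edgeR, adjusted p = 0.0174). The call was lost without Fl/Fl 5 (adjusted p = 0.0998), Fl/Fl 7 (0.0770) or LKO 4 (0.0579), while the log2 fold change stayed between 0.57 and 0.60 in these 3 fits.

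Mrpl14 lies on the face of the large subunit that meets the small subunit, and assembly factors hold that face until the subunit is complete (chr17:45686322-45698495, plus strand). It was measured at 18.1, 22.7 and 23.2 CPM in female Fl/Fl 5, 7 and 9 and at 34.5, 40.2, 34.9 and 31.2 CPM in LKO 3, 4, 12 and 13. The female groups did not overlap, with LKO 4 the highest of them and Fl/Fl 5 the lowest, and the male library stood at 41.8 CPM. Its log2 fold change of 0.72 ± 0.118 was the highest among the members (35.2 ± 3.73 against 21.3 ± 2.82 CPM; edgeR, adjusted p = 0.0198). It missed the threshold without Fl/Fl 5 (adjusted p = 0.101), Fl/Fl 7 (0.0707) or LKO 4 (0.0652).

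Mrpl20, a counterpart of a bacterial protein that binds the large rRNA early in assembly, lies at chr4:155802878-155809975 on the plus strand. Its level was 10.5, 12.5 and 14.95 CPM in female Fl/Fl 5, 7 and 9 and 20.2, 20.4, 20.1 and 20.1 CPM in LKO 3, 4, 12 and 13. The LKO libraries lay close together and above all female Fl/Fl libraries, and the male library was higher still at 30.6 CPM. The log2 fold change was 0.68 ± 0.119 (20.2 ± 0.125 against 12.6 ± 2.24 CPM; edgeR, adjusted p = 0.0262). Leaving out Fl/Fl 5, Fl/Fl 7, LKO 4, LKO 12 or LKO 13 gave adjusted p-values of 0.116, 0.0961, 0.0909, 0.0540 and 0.0756.

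Mrps26, a small subunit protein found only in mitochondria, lies at chr2:130563742-130568695 on the plus strand. Its level was 11.9, 11.4 and 12.6 CPM in female Fl/Fl 5, 7 and 9 and 17.6, 16.0, 16.5 and 17.9 CPM in LKO 3, 4, 12 and 13. The female groups did not overlap, and the male library was above both at 20.99 CPM. The log2 fold change was 0.50 ± 0.0954 (17.0 ± 0.896 against 11.99 ± 0.591 CPM; edgeR, adjusted p = 0.0343). This call was lost when any one of Fl/Fl 5, Fl/Fl 7 and LKO 3, 4, 12 and 13 was left out, with adjusted p-values of 0.167, 0.139, 0.0643, 0.0909, 0.0578 and 0.0947, and in limma on log2(FPKM + 1), where it was 0.0634.

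**Figure D1:**
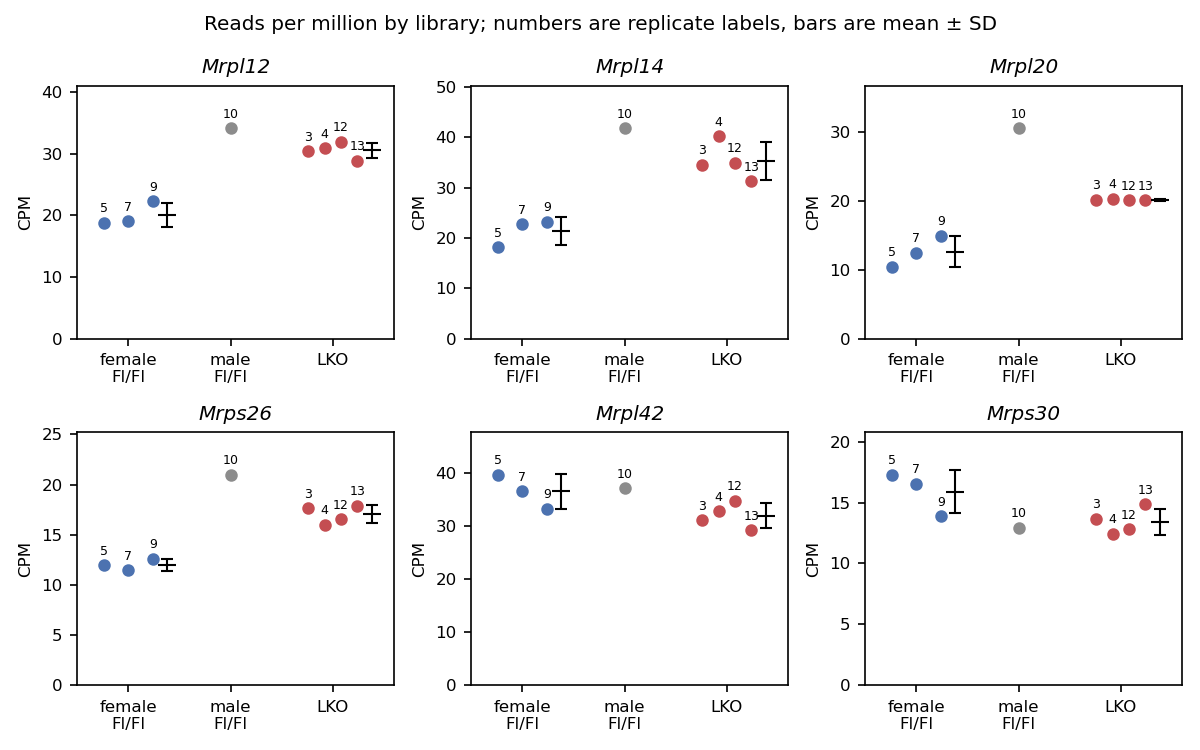
Scaled read counts (CPM, y axis from 0) of 6 members in each library; points are libraries with their replicate label, and black bars are mean ± SD of the 3 female Fl/Fl and 4 LKO libraries. In Mrpl12, Mrpl14, Mrpl20 and Mrps26 every LKO point is above every female Fl/Fl point and the male Fl/Fl point is higher than all of them, while Mrpl42 and Mrps30 show groups that overlap.

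Read by sign, 58 of 77 members had a positive log2 fold change and 19 a negative one. That is 75.3% positive, against 49.5% of all genes tested and 60.2% of those at or under the members' median length. The median over the members was 0.12 and the range ran from -0.24 to 0.72, beside a median near 0 for all genes. In the fit without a sex term, 48 of 77 members were positive. All 4 LKO libraries were above all 3 female Fl/Fl libraries in 24 members (31.2%, against 8.85% of all genes), of which 16 were large and 8 small subunit genes. The same order held in 34.1% of cytosolic ribosomal protein genes and 45.7% of complex I genes. It held in 12.2% of all genes tested at or under the members' median length. The opposite order held in 1 member, Mrpl35 (against 6.22% of all genes). The medians were 0.11 for the large and 0.16 for the small subunit. Placing Mrps18a and Mrps30 with the large subunit, where they sit in the structure, and Mrps36 with neither gave 0.11 and 0.15.

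**Figure D2:**
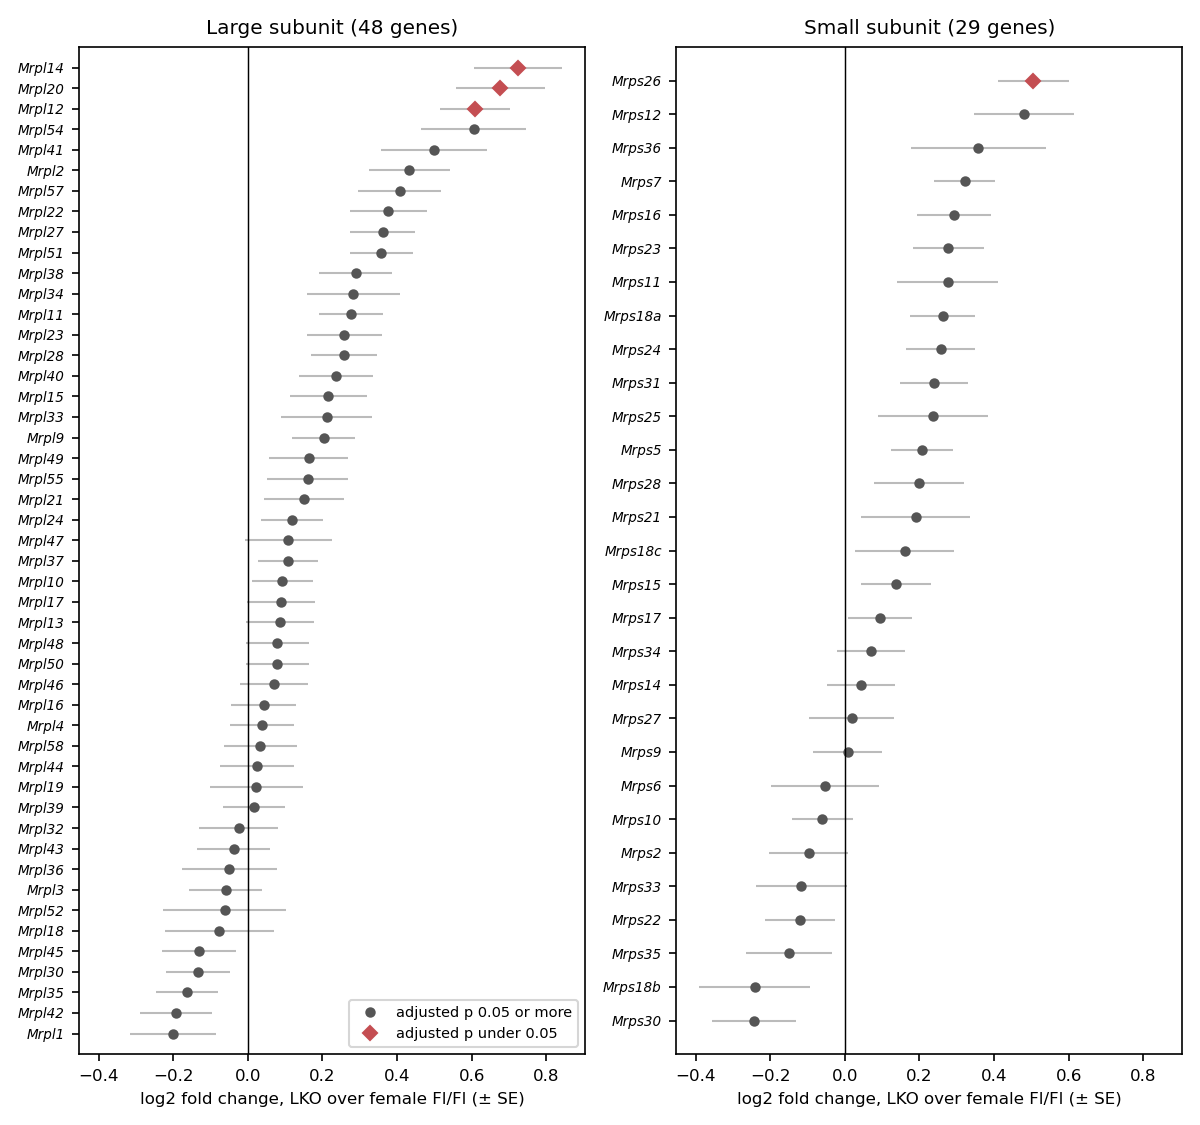
Log2 fold change of LKO over female Fl/Fl (x axis, ± SE of the edgeR fit) of the 48 large and 29 small subunit genes, ordered by value; red diamonds passed an adjusted p of 0.05. Most points lie right of 0 and the range is -0.24 to 0.72, with 4 diamonds, Mrpl14, Mrpl20, Mrpl12 and Mrps26.

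Summed over the 77 genes, the members made up 1836 ± 32.5 CPM in LKO (n = 4), 1669 ± 60.4 CPM in female Fl/Fl (n = 3), with 2112 CPM in the male library. The large subunit summed to 1232 ± 20.4 against 1116 ± 42.7 CPM and the small subunit to 603 ± 12.1 against 553 ± 17.8 CPM. The ratio of the large to the small sum was 2.04 ± 0.0078 in LKO and 2.02 ± 0.0141 in female Fl/Fl.

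**Figure D3:**
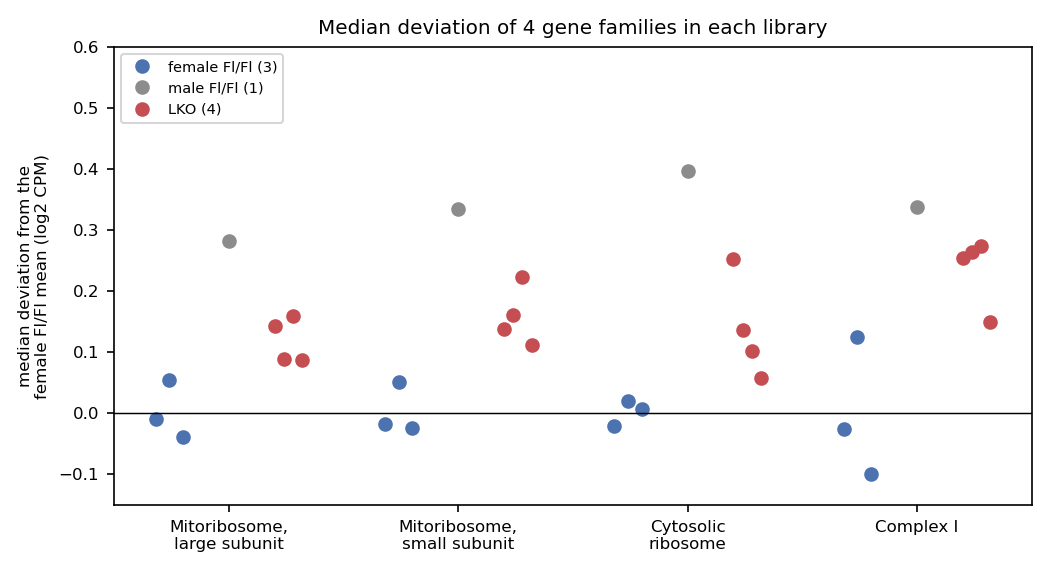
Median deviation of each library from the female Fl/Fl mean (y axis, log2 CPM) over the genes of 4 families: both subunits of the mitochondrial ribosome, the cytosolic ribosome and complex I of the respiratory chain. LKO points lie above 0 in all 4 families and the male Fl/Fl library is the highest point in each; in the large subunit the male library stands at 0.28 and LKO at 0.09 to 0.16.

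By origin, the 30 large subunit proteins with a bacterial counterpart had a median log2 fold change of 0.13, and 3 rose. The 20 large subunit proteins classed here as mitochondria-only, Mrps30 and Mrps18a among them, had a median of 0.08. In edgeR 0 of them passed, with 7 at an unadjusted p under 0.05 and 4 called by DESeq2. In the small subunit, the 16 with a bacterial counterpart had a median of 0.18 with 0 past the threshold. Of these, 5 were at an unadjusted p under 0.05 and 2 were called by DESeq2. The 10 classed as mitochondria-only, Mrps18b among them, had a median of 0.04 with 1 past the threshold. Mrps18a and Mrps18b are paralogs of Mrps18c, which takes the bacterial S18 site, so their class is a convention of this grouping. With a length trend removed, the medians of these 4 classes were 0.13, 0.05, 0.06 and -0.02 in the same order. Whether the classes differ from each other was not tested.

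Proteins of the factor-binding stalk and its base were measured in 4 genes, all positive, with a median of 0.44 (0.36 without the length trend). Beside Mrpl12 these were Mrpl54, a mitochondria-only protein near the stalk (0.60 ± 0.142, adjusted p = 0.0680), Mrpl11, the base of the stalk on the rRNA (0.28, 0.151), and Mrpl10, which holds the copies of Mrpl12 (0.09, 0.627). Mrpl54 was at 7.61, 9.15 and 11.3 CPM in female Fl/Fl 5, 7 and 9 and 13.2, 15.2, 15.4 and 13.2 CPM in LKO 3, 4, 12 and 13, so its groups did not overlap although it missed the threshold. Mrpl10 stood at 29.6 to 31.6 CPM in female Fl/Fl and 31.1 to 34.4 CPM in LKO, which overlap. The 8 proteins around the exit tunnel, where the new chain leaves towards the membrane, had a median of 0.10 with 7 positive. None of the 8 passed in edgeR, 2 were at an unadjusted p under 0.05 and 1 was called by DESeq2. The shares of all genes were 9.22% higher and 6.86% lower at that unadjusted p, and 6.24% in DESeq2. Mrpl22 had the smallest p (0.38, adjusted p = 0.108), and Mrpl45, which anchors the ribosome to the inner membrane, was the negative one (-0.13, adjusted p = 0.569).

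Among other large subunit proteins, Mrpl51, found only in mitochondria, missed the threshold at 0.36 ± 0.0851 on the log2 scale (adjusted p = 0.0688). Its level was 27.7, 30.5 and 30.5 CPM in female Fl/Fl and 38.8, 38.7, 39.0 and 35.2 CPM in LKO. Mrpl27 and Mrpl2, whose bacterial counterparts lie near the peptidyl transferase centre, had 0.36 (adjusted p = 0.0703) and 0.43 (adjusted p = 0.0846). In all 3 genes every LKO library was above every female Fl/Fl library. The lowest values in this subunit were those of Mrpl1, which forms the stalk where spent tRNA leaves (-0.20, adjusted p = 0.427), Mrpl42 (-0.19, 0.359) and Mrpl35 (-0.16, 0.370). Mrpl35 was at 24.6, 24.8 and 22.4 CPM in female Fl/Fl and 20.8, 21.4, 21.9 and 21.4 CPM in LKO. Mrpl58, which frees chains from stalled ribosomes, was at 16.4 to 19.0 CPM in female Fl/Fl and 17.3 to 20.1 CPM in LKO (0.03, adjusted p = 0.908).

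Among small subunit proteins, Mrps7, which binds the rRNA of the head, was at 36.1, 39.0 and 39.9 CPM in female Fl/Fl 5, 7 and 9 and 50.6, 46.3, 47.8 and 46.9 CPM in LKO 3, 4, 12 and 13. Its groups did not overlap, and its log2 fold change was 0.32 ± 0.0824 (adjusted p = 0.0917). Mrps12, part of the decoding centre, was at 18.6, 18.8 and 26.2 CPM against 32.0, 29.6, 30.9 and 25.8 CPM (0.48 ± 0.133, adjusted p = 0.110). Here Fl/Fl 9 lay above LKO 13, so the groups overlapped. Mrps16 stood at a log2 difference of 0.29 (adjusted p = 0.186) and Mrps36, a protein later assigned to the 2-oxoglutarate dehydrogenase complex, 0.36 ± 0.181 (adjusted p = 0.365). The lowest were Mrps30, a large subunit protein in the structure (-0.24 ± 0.113, adjusted p = 0.322), Mrps18b (-0.24 ± 0.149, 0.465) and Mrps35 (-0.15, 0.575).

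Mrps18 has 3 paralogs, which sit at different places in the ribosome. Mrps18a, in the large subunit, was at 18.4 to 20.2 CPM in female Fl/Fl and 22.2 to 24.9 CPM in LKO (0.26, adjusted p = 0.177). Mrps18b was at 13.6 to 19.97 CPM against 13.2 to 17.6 CPM, and Mrps18c, which takes the bacterial S18 site, at 6.18 to 8.21 against 7.35 to 8.24 CPM (0.16, adjusted p = 0.602). Only Mrps18a had groups that did not overlap, and differences between the paralogs were not tested.

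The male Fl/Fl library lay outside the range of the female groups in most members. It was above all 7 female libraries in 48 of 77 members (30 large, 18 small), above the female Fl/Fl libraries alone in 10, within their range in 16, below them alone in 1 (Mrps30) and below all 7 in 2 (Mrpl45 and Mrps6). It was nearer to the LKO mean in 60 members and nearer to the female Fl/Fl mean in 17. With 1 male library, sex and anything else particular to that animal cannot be told apart.

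Levels between genes were compared per length, on the deposited FPKM averaged over 8 libraries. They ran from 1.19 FPKM for Mrps25 to 41.1 for Mrpl34, a 34.6-fold span, with a median of 11.6 for the large and 6.66 for the small subunit. The highest large subunit genes were Mrpl34, Mrpl14 (33.7) and Mrpl2 (27.5), and the lowest Mrpl33 (1.32), Mrpl19 (2.09) and Mrpl47 (2.16). In the small subunit Mrps12 (27.1), Mrps24 (24.2) and Mrps21 (24) led, and Mrps25, Mrps30 (2.23) and Mrps6 (2.90) were last. The order depends on the length used. The deposited length is the sum of all annotated exon bases in 72 of the 77 genes. Dividing instead by the median protein-coding transcript moved 21 genes by more than 20 ranks (Spearman 0.609 between the orders over the 77 genes): Mrpl33, with a deposited length of 7326 bases against 478 for the transcript, went from rank 76 to 40, and Mrpl52 from 10 to 1.

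**Figure D4:**
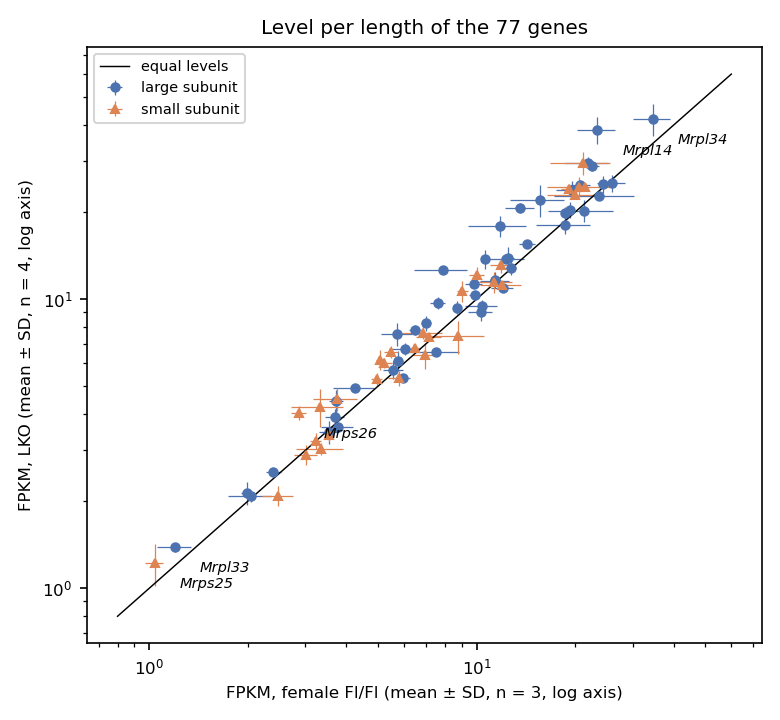
Deposited FPKM of the 77 genes in LKO (y, mean ± SD, n = 4) against female Fl/Fl (x, mean ± SD, n = 3), both on log axes, with the line of equal levels. The group means span 1.22 to 42.0 FPKM in LKO and 1.04 to 34.5 in female Fl/Fl, and Mrpl14 and Mrps26 lie above the line.

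Gene length goes with the fold change in these data. The members had a median deposited length of 2255 bases (607 to 8631), against 3815 for all genes tested. Over all genes tested, those of at most 2255 bases had a median log2 fold change of 0.09 (4213 genes) and longer ones -0.02 (12207 genes). Among members, the 39 of at most the median length had a median of 0.16, with 3 past the threshold, and the 38 longer ones 0.08, with 1. The share of all genes past the threshold was 1.95% at or under that length and 1.23% above it. The local trend of fold change on length over all genes tested, read at the members' lengths, had a median of 0.05. Members lay above it in 54 of 77 genes, by a median of 0.09 (33 of 48 large, 21 of 29 small). With a length trend removed per library, the same 4 genes passed, at a background of 1.19% (adjusted p of 0.0325 for Mrpl12, 0.0341 for Mrpl14, 0.0436 for Mrpl20 and 0.0348 for Mrps26). The large subunit median was then 0.10 and the small subunit median 0.06 in place of 0.16.

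**Figure D5:**
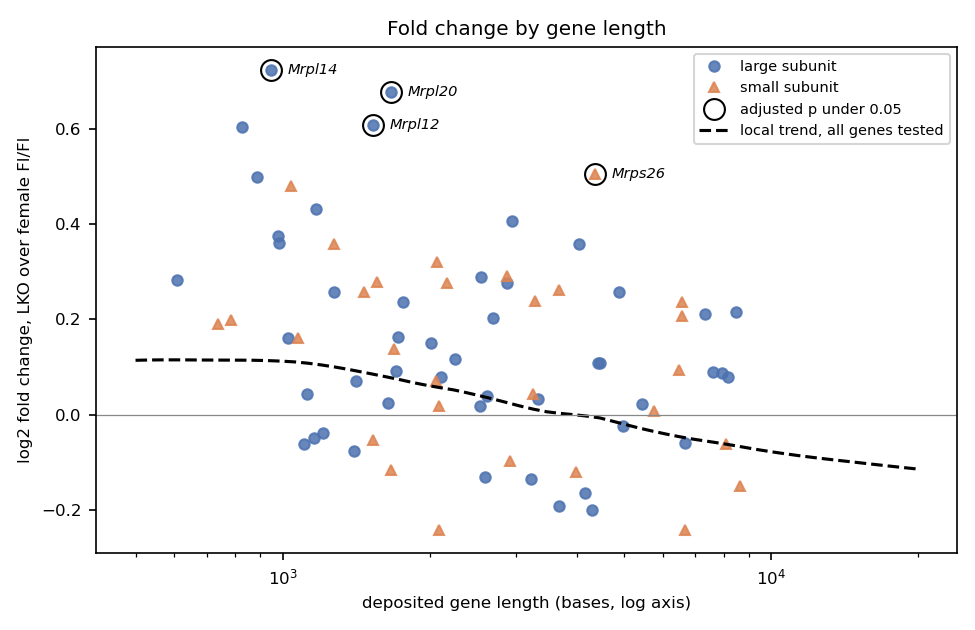
Log2 fold change of LKO over female Fl/Fl (y) against deposited gene length (x, bases, log axis) for large (circles) and small (triangles) subunit genes, with the local trend over all genes tested (dashed); open rings mark the 4 genes with an adjusted p under 0.05. The trend is above 0 for short genes and 54 of 77 members lie above it; of the 4 ringed genes, Mrps26 is the longest at 4358 bases.

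Reads from overlapping genes may be split or shared, since the sources used here do not give the strand setting of the counting. Exon bases were shared with another gene by 32 of the 77 members, 17 of them over at least 10% of their exon bases. Where a member had several partner genes, their overlaps were added, so bases shared with more than 1 partner count more than once. Mrps34 (1309 of its 2064 exon bases shared with Mapk8ip3, and some with Nme3) and Mrps25 (69.8%, with Nr2c2) are therefore uncertain. Of the genes that rose, Mrpl12 shares 13.1% with the noncoding Gm16755, Mrpl14 11.2% with Tmem63b, Mrps26 0.184% and Mrpl20 none. The 45 members with no shared bases included Mrpl54, Mrpl2 and Mrps12.

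Upstream on the other strand, a protein-coding gene started within 1000 bases of 18 of 77 members (23.4%). The share was 9.53% of the 13729 tested protein-coding genes. Pairs whose 5′ ends overlap, such as Mrps11 and Mrpl46, were not counted. Mrpl2 starts 207 bases from Klc4, a kinesin light chain, which rose (0.64, adjusted p = 0.0204) where Mrpl2 did not pass. Mrps12 starts 172 bases from Sars2, the mitochondrial seryl-tRNA synthetase, whose log2 fold change was 0.08 (adjusted p = 0.770). The Klc4 call was lost without Fl/Fl 5 (0.0998), Fl/Fl 7 (0.0673), LKO 4 (0.0775) or LKO 13 (0.0630). The members lay on 17 chromosomes, with at most 11 on one.

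Other genes of mitochondrial translation are given next, from lists of known function. Of 5 mitoribosome proteins named otherwise, 0 passed in edgeR, with a median of 0.15, none at an unadjusted p under 0.05 and none in DESeq2. Chchd1 had the smallest p (0.18, adjusted p = 0.388). The median of these 5 was 0.05 with a length trend removed, 0.06 with a GC trend removed and 0.06 without a sex term. Of 31 assembly and rRNA modification factors, 0 passed (median 0.07), 6 were higher at an unadjusted p under 0.05, and DESeq2 called 1. That gene was Gtpbp6, which acts in the last steps of large subunit assembly and in ribosome recycling (0.56 ± 0.166, edgeR adjusted p = 0.130). Of 19 translation and mRNA handling factors tested, 0 passed in edgeR and 0 in DESeq2, with a median of -0.03 and 2 lower at an unadjusted p under 0.05. Mtfmt, which formylates the initiator tRNA, had the smallest p (-0.35, adjusted p = 0.213). Of 20 aminoacyl-tRNA synthetase genes, 0 passed in edgeR and 0 in DESeq2, with a median of 0.01, 1 higher at an unadjusted p under 0.05 and Tars2 first (0.20, adjusted p = 0.266). Over the alternatives the median ran from 0.01 to 0.12 for the assembly factors, from -0.08 to 0.07 for the translation factors and from -0.008 to 0.04 for the synthetases.

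Among 18 regulators of mitochondrial transcription and biogenesis, 1 rose and 0 fell in edgeR, with a median of -0.05. DESeq2 called 3 higher (Ppargc1b, Ppargc1a and Esrra) and 1 lower (Myc), at a background of 6.24%. Ppargc1b, a coactivator of respiratory gene transcription, was at 6.51, 4.05 and 6.09 CPM in female Fl/Fl 5, 7 and 9 and 8.35, 11.2, 12.97 and 13.8 CPM in LKO 3, 4, 12 and 13, without overlap, and at 9.27 CPM in the male library. Its log2 fold change was 1.06 ± 0.209 (edgeR, adjusted p = 0.0410). The call was lost without Fl/Fl 5 (0.121), Fl/Fl 7 (0.114), LKO 4 (0.127), LKO 12 (0.0918) or LKO 13 (0.103), in limma voom (0.0544), in limma on log2(FPKM + 1) (0.0821) and with a GC trend removed (0.0934). Esrra, a nuclear receptor that works with such coactivators and was chosen after its values were seen, had 0.42 ± 0.0907 (adjusted p = 0.0521).

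Of the 2 rRNAs encoded in the mitochondrion, 1 fell and 0 rose. The large rRNA mt-Rnr2 was at 912, 948 and 882 CPM in female Fl/Fl 5, 7 and 9 and 438, 323, 484 and 562 CPM in LKO 3, 4, 12 and 13, without overlap, and at 571 CPM in the male library. It fell by 1.02 on the log2 scale (452 ± 100 against 914 ± 32.9 CPM; edgeR, adjusted p = 0.0175). The call was lost without Fl/Fl 5 (0.0998) or Fl/Fl 7 (0.0724). The small rRNA mt-Rnr1 was at 250, 232, 365 and 342 CPM in LKO and 382, 438 and 402 CPM in female Fl/Fl (-0.46 ± 0.156, adjusted p = 0.188). The sources used here do not say whether poly(A) selection or rRNA depletion was used, and either bears on how rRNA is captured. Of the 13 mitochondrially encoded proteins, 0 passed in edgeR and 0 in DESeq2, with a median of -0.13 and 11 of 13 negative, and an unadjusted p under 0.05 in 1 that was higher and 1 that was lower. Their median was 0.07 with a GC trend removed and -0.06 without Fl/Fl 5 and 7, so its sign depended on the processing. Without a sex term the calls of Klc4 (0.581), Ppargc1b (0.451) and mt-Rnr2 (0.345) were lost. Leaving out both Fl/Fl 5 and 7 keeps Fl/Fl 9 as the only female control. The log2 fold changes of Klc4, Ppargc1b and mt-Rnr2 were then 0.52, 0.92 and -0.97.

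The cytosolic ribosome and complex I, also built from nuclear genes, were read in the same way. Of 85 cytosolic ribosomal protein genes tested, 5 rose (5.88%) and 0 fell, with a median of 0.14 and 64 positive. Of 46 complex I genes, 8 rose (17.4%) and 0 fell, with a median of 0.24 and 34 positive. Among all genes tested, 1.41% passed and 49.5% were positive. Neither family was read in the alternative fits. The members, with 4 of 77 and a median of 0.12, were not tested against either family. The male library was high there too: the cytosolic ribosomal genes summed to 13668 CPM in it, against 10464 ± 166 in female Fl/Fl and 11381 ± 631 in LKO.

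In the authors' deposited table, 0 of the 77 members had an adjusted p under 0.05 for LKO over Fl/Fl, the smallest was 0.570 and the median log2 fold change was 0.03, beside 111 of 27110 listed genes with an adjusted p under 0.05. That table compares 4 libraries with 4, and in the edgeR fit without a sex term, which makes the same comparison, the medians were 0.03 for the large and 0.05 for the small subunit.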

How the data were processed

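Total RNA of 8 mouse livers was sequenced, 4 per genotype. The build mm10 and the tools STAR, fastp, featureCounts, HTSeq, edgeR, DESeq and DESeq2 are named in the submitters' processing notes, with neither role nor version. Strand setting, annotation release and RNA selection are not given in the sources used here. For 27110 genes the authors deposited whole-number read counts, normalised signal (not used here), FPKM scaled by a deposited gene length, and, for LKO over Fl/Fl, their own log2 fold change with its p-value and adjusted p. The unit of the length column is bases, and the authors' deposited lengths equal the union of GENCODE M21 exons in 96.7% of listed genes.

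The counts were tested with edgeR 4.0.16 under R 4.3.3: filterByExpr by genotype, TMM scaling, and the robust quasi-likelihood F test (two-sided) with terms for genotype and sex over 8 libraries. The sex term absorbs the male library, so the effect is 4 LKO against 3 female Fl/Fl. P-values were Benjamini-Hochberg adjusted over 16420 genes. Standard errors are the absolute log2 fold change over the square root of F. The biological coefficient of variation was 20.4%. The 4 pseudogene entries with similar names were left out. The procedure was tested on simulated data. No 2 libraries agreed within sampling noise (lowest chi-square per degree of freedom 31.9).

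The members and gene lists were chosen with earlier results of these data known. Named genes are the members past the threshold, per subunit the 5 smallest p, the 3 largest and smallest fold changes and the 3 highest and lowest FPKM, members with an unusual place or role or a library that stands apart, and per list those past the threshold or the smallest p. Klc4, Sars2, Esrra and genes named for a class, an overlap or a sequence were named after their values were seen. Alternatives were no sex term, female libraries alone, other scalings and filters, DESeq2 1.42.0, limma 3.58.1 (voom, and trend on log2(FPKM + 1)), each library left out, Fl/Fl 5 and 7 left out, an adjusted p of 0.1, other subunit membership, and local trends (span 0.3) on length or GC content removed per library. GC content came from the longest GENCODE M21 protein-coding transcripts, since no genome was given. Leaving out members that share exon bases was added after seeing the data. The marker sums omit 1 listed gene, which is not reported here.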

Additional observations from a re-analysis of the deposited data

Results flagged for a closer look

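In a group of 4 libraries, a library was marked when its gap to the nearest other library relative to the range passed Dixon's 95% critical value for 4 samples, which chance does in about 1 of 20 groups. Of 154 such checks over the 77 members, 15 were marked. In LKO, replicate 12 was lowest for Mrpl15 (39.6 CPM) and Mrpl4 (26.7 CPM) and highest for Mrpl41 (22.5 CPM), replicate 13 was lowest for Mrpl2 (31.0 CPM) and Mrpl51 (35.2 CPM), replicate 4 was lowest for Mrpl50 (37.6 CPM) and replicate 3 was lowest for Mrps17 (30.3 CPM). In Fl/Fl, all 8 marked values were the male replicate 10 as the highest: 15.8 CPM for Mrpl22, 18.2 for Mrpl55, 30.8 for Mrps10, 20.5 for Mrps16, 48.2 for Mrps24, 21 for Mrps26, 19.1 for Mrps34 and 60.7 for Mrps7. The same library stood apart in the summed cytosolic ribosomal protein genes, at 13668 CPM against 10583 CPM in the nearest Fl/Fl library.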

How the results depend on the processing

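No paired analysis was possible because the replicate numbers of LKO and Fl/Fl libraries differ and pair no samples. The counts past the threshold were 3 (large subunit), 1 (small subunit) and 232 (all genes). They became 0, 0 and 1 without a sex term, 6, 2 and 462 with no filter beyond 1 read, 10, 3 and 885 in DESeq2, 0, 0 and 26 without Fl/Fl 5 and 7, and 7, 2 and 531 at an adjusted p of 0.1. In limma on log2(FPKM + 1) the small subunit count was 0 and that of all genes 112, and with a GC trend removed that of all genes was 153. Leaving out 1 library at a time gave 0 to 8, 0 to 2 and 4 to 727. The median log2 fold change of the large subunit, 0.11, was 0.026 without a sex term, 0.17 without Fl/Fl 5 and 7 and 0.16 over members that share no exon bases, and 0.10 to 0.13 with 1 library left out. That of the small subunit, 0.16, was 0.047 without a sex term, 0.059 with a length trend removed, and 0.065 to 0.19 with 1 library left out. The median stayed positive in every alternative run. Leaving out Fl/Fl 5 and 7 keeps Fl/Fl 9 as the only female control. Over all 77 members, 64 had a positive log2 fold change in that fit, against 58 in the main fit. Signs of single members were read across the alternatives for 25 of them. Among these 25, the sign turned without Fl/Fl 5 and 7 for Mrpl1 (0.12), Mrpl45 (0.071), Mrps18b (0.13) and Mrps35 (0.15). It also turned for Mrpl58 without Fl/Fl 9 or LKO 3, where leaving out 1 library gave -0.027 to 0.073. The cause was not tested. Leaving out Fl/Fl 10 and using the female libraries alone are the same fit. Over the 19 distinct alternatives, Mrpl12 and Mrpl14 passed in 14 each, Mrpl20 in 12 and Mrps26 in 10. Across the alternatives, the smallest log2 fold changes were 0.37 for Mrpl12, 0.41 for Mrpl14, 0.24 for Mrpl20 and 0.26 for Mrps26. Every member had at least 250 reads in each library.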
